A study of Homo sapiens with 8 samples.

Results

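The subject here is a set of 10 genes of varied function that stood far higher at 1% oxygen than at 21% oxygen in Panc1, a human cell line established from a pancreatic ductal adenocarcinoma: PPFIA4, DEPP1, TSPEAR, FGF11, ZNF395, AK4, ANKRD37, FAM162A, TMEM45A and NDRG1. They were picked by name from 15176 listed genes, 13112 of which were tested, for a large rise in control cells at low oxygen. That rise is therefore described below and not tested. All 10 were in the table and passed the filter on low values, a mean log2 CPM above 0 over the 8 libraries. PPFIA4, TSPEAR and ANKRD37 averaged -0.45, -0.42 and -1.30 log2 CPM in control cells at 21% oxygen. They passed only through their level in the hypoxic libraries, which limits what their tests against 21% oxygen can show. They are not every gene with such a rise: among tested genes their rises ranked from 1 to 59, and 49 other tested genes rose at least as much as the least-risen of the 10. The genes next below were SH3D21, LOX and PLIN2, with log2 rises of 1.84, 1.83 and 1.81.

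RNA was sequenced in 3 groups. The siSF3B1_Hx group (3 libraries, numbered 3, 6 and 9) received an siRNA against SF3B1 and was kept for 8 hours at 1% oxygen. The siCtrl_Hx group (3 libraries, 2, 5 and 8) received a control siRNA and was kept at 1% oxygen, and the siCtrl_Nx group (2 libraries, 1 and 4) received the control siRNA at 21% oxygen. The labels do not make clear whether siCtrl_Hx was also kept for 8 hours, so time and siRNA cannot be told apart between these groups if it was not. All groups are the same line and all received an siRNA. SF3B1-depleted cells at 21% oxygen were not analysed here, so an effect of the siRNA on the hypoxic rise cannot be told apart from an effect that it would also have at normal oxygen. Nothing in the labels ties the libraries to separate cultures, and p-values therefore cover library-to-library spread alone, which may be technical.

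Cells sense low oxygen largely through the hypoxia-inducible factors HIF-1 and HIF-2. At normal oxygen their alpha subunits (HIF1A, EPAS1) are hydroxylated by oxygen-dependent enzymes, bound by the VHL ubiquitin ligase and degraded. At low oxygen they persist, pair with ARNT and bind short DNA motifs with the core ACGTG or GCGTG near genes of glycolysis, vessel growth, mitochondrial turnover and survival. Pancreatic ductal tumours are known for being poorly perfused and hypoxic. SF3B1 is a splicing factor: as part of the U2 particle it helps to recognise the branch point of introns.

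To show where such letters stand in the set, the 250 bases before the start of the gene were read from RefSeq (GRCh38.p14, most upstream start where a gene has several) and searched on both strands for ACGTG. Windows of 7 of the 10 genes were read, and 5 of the 7 held ACGTG. No window was read for TSPEAR, ZNF395 or NDRG1, so the count says nothing about these genes. Over all 27305 genes with a window, 18.6% held it in their most upstream window, and among 10399 tested genes 23.7% did. In the sequences below, written 5′ to 3′ on the plus strand, capitals mark ACGTG on either strand. The palindrome CACGTG holds ACGTG once on each strand. Windows are chr1:203026241-203026490 for PPFIA4, chr1:65147302-65147551 for AK4, chr17:7438048-7438297 for FGF11 and chr3:122383932-122384181 for FAM162A, and chr4:185396679-185396702 is the stretch of 24 bases shown for ANKRD37.
PPFIA4: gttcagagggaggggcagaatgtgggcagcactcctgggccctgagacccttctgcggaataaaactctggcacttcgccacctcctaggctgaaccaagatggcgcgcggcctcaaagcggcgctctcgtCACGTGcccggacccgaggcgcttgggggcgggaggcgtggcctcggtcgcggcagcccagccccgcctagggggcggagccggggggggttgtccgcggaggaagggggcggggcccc
AK4: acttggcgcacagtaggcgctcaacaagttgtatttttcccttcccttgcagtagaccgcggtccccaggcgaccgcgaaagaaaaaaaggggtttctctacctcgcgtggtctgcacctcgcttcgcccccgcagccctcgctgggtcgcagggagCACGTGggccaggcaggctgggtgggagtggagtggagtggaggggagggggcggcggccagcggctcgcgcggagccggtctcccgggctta
FGF11: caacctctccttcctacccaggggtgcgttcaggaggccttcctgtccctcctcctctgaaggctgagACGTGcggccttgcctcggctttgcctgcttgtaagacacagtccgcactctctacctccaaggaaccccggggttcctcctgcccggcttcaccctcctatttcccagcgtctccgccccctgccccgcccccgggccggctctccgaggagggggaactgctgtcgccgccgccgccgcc
FAM162A: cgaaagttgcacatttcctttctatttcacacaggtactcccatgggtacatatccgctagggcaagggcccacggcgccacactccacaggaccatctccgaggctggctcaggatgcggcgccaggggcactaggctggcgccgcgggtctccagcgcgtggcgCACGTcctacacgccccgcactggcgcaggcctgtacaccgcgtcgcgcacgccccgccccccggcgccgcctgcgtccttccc
ANKRD37: CACGTGccagtgtttgtgtACGTG

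PPFIA4, AK4 and ANKRD37 carried the palindrome CACGTG, which stood in the most upstream window of 6.46% of all genes and 8.97% of tested genes. Counted back from the RefSeq start, it began at base 119 in PPFIA4, base 93 in AK4 and base 162 in ANKRD37. ANKRD37 had a further ACGTG that began 143 bases before the start. For ANKRD37 only the stretch with the motifs is shown, because GENCODE places untranslated exon sequence over that window. FGF11 had 1 ACGTG, beginning at base 182, and FAM162A had 1 on the minus strand, beginning at base 84. The variant core GCGTG, which 31.9% of all genes and 46.4% of tested genes held in the most upstream window, was found in PPFIA4 (1 copy), AK4 (1 copy) and FAM162A (3 copies). The windows of DEPP1 and TMEM45A held neither set of letters. A match is a description of these letters and not evidence of binding.

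Levels are given as the deposited log2 CPM (the log2 of reads relative to library size, CPM being the linear value, with a prior count of about 2 reads), and reads recovered from them are given where they are few. Recovered totals ran from 20496492 to 25257173 reads per library. SF3B1, the target of the siRNA, averaged 40.8 ± 3.85 CPM in siSF3B1_Hx, against 437 ± 25.8 CPM in siCtrl_Hx and 469 ± 4.11 CPM in siCtrl_Nx (SD, n = 3, 3 and 2). Ductal epithelial markers were all present, 7 of 7, with a summed level of 8111 to 10898 CPM in siSF3B1_Hx, 4885 to 6243 CPM in siCtrl_Hx and 5251 to 6226 CPM in siCtrl_Nx. Fibroblast markers (3 of 6 in the table) summed to 14.9 to 38.3 CPM in siSF3B1_Hx, 24.1 to 55.8 CPM in siCtrl_Hx and 17.8 to 41.5 CPM in siCtrl_Nx. Of 7 blood and endothelial markers CD68 alone was in the table, at 167 to 229 CPM in siSF3B1_Hx, 121 to 166 CPM in siCtrl_Hx and 105 to 149 CPM in siCtrl_Nx, and none of 6 acinar and endocrine markers was. Whether the higher ductal sum in siSF3B1_Hx plays a part in the results was not tested.

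Across the 10 genes, 9 were lower in siSF3B1_Hx than in siCtrl_Hx and none was higher, while 8 remained higher than in siCtrl_Nx. Among all tested genes 34.1% were called higher and 28.3% lower in siSF3B1_Hx than in siCtrl_Nx. The change with SF3B1 siRNA was widespread: of all tested genes 30.9% were called lower and 35.0% higher in siSF3B1_Hx than in siCtrl_Hx (limma, Benjamini-Hochberg adjusted p under 0.05), so the 9 are read against a background in which lower calls were common. Without the authors' scaling, on plain read totals, that split became 3551 higher and 4956 lower genes, against 4595 higher and 4055 lower genes as deposited, and the median of all tested genes moved by -0.13. All 9 calls held there as well. The median log2 fold change of the 10 genes was -1.16, against 0.033 over all tested genes. Both tests of siSF3B1_Hx share siCtrl libraries with the contrast that chose the genes. Among the 8 that remained higher, PPFIA4, TSPEAR and ANKRD37 also passed the filter only through hypoxic libraries. Their calls against siCtrl_Nx therefore add no support. In bulk RNA, expression in fewer cells and less RNA per cell cannot be told apart.

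**Figure D1:**
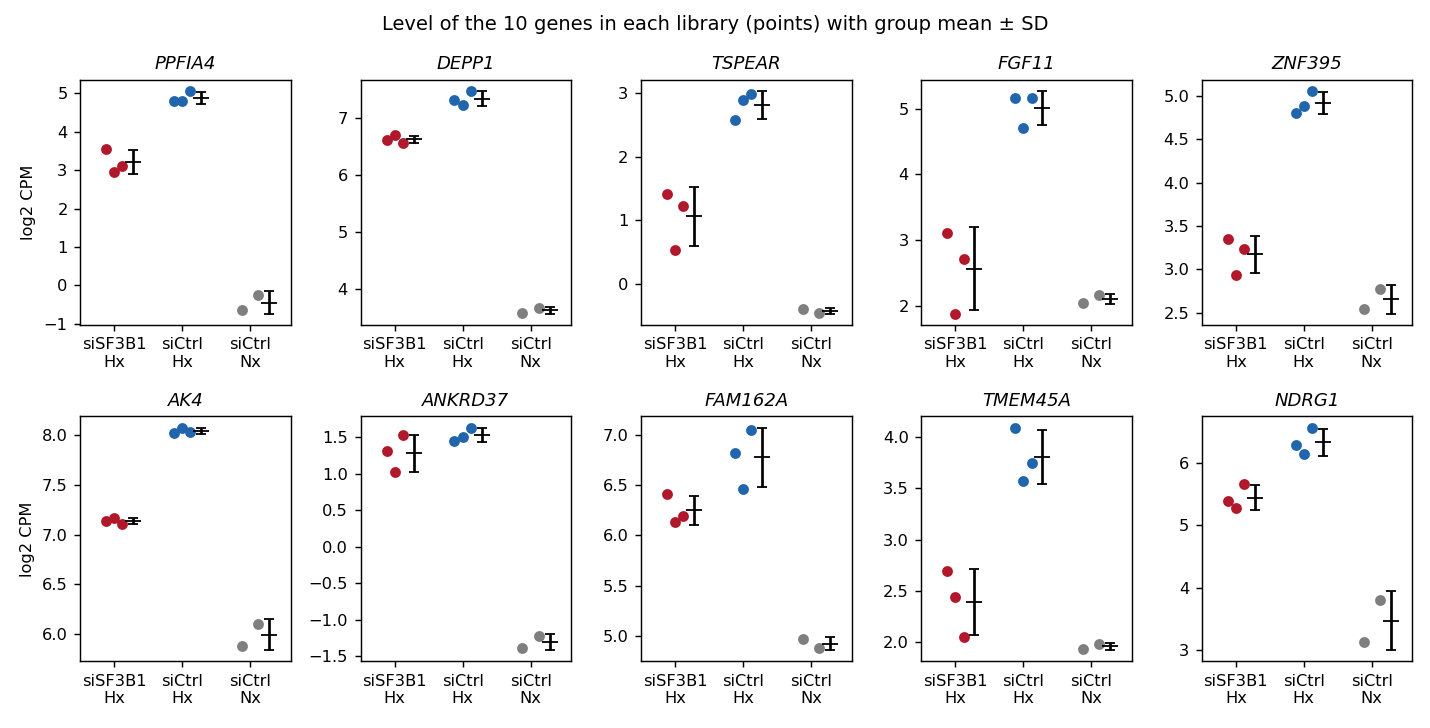
Level of each of the 10 genes, as deposited log2 CPM, in every library (points) with the group mean and SD (bars) for siSF3B1_Hx, siCtrl_Hx and siCtrl_Nx; each panel has its own axis. In 8 panels all siSF3B1_Hx libraries lie between those of siCtrl_Hx and siCtrl_Nx; in the ANKRD37 panel they overlap siCtrl_Hx and in the FGF11 panel they overlap siCtrl_Nx.

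The intermediate pattern can be stated without a fold change. In 8 of the 10 genes every siSF3B1_Hx library lay below every siCtrl_Hx library and above every siCtrl_Nx library, a placing found in 1.01% of tested genes. Because the genes were chosen for a high siCtrl_Hx and a low siCtrl_Nx level, there was room between the groups by choice, and the share over all genes is no like-for-like standard. By the choice of the set, all 10 genes were higher in every siCtrl_Hx library than in any siCtrl_Nx library, as were 20.0% of tested genes. For siSF3B1_Hx below siCtrl_Hx in every library the count was 9 of 10 genes, against 32.1% of tested genes. For siSF3B1_Hx above siCtrl_Nx in every library the count was 9 of 10 genes, against 40.2% of tested genes.

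Scaffold and signalling genes come first. PPFIA4 encodes liprin-alpha-4, of a family of scaffold proteins known from synaptic active zones and focal adhesions (Entrez 8497; chromosome 1, 203026498 to 203078740 on the plus strand of GRCh38; up to 35 exons in a GENCODE transcript). Its level was 3.55, 2.96 and 3.10 log2 CPM in siSF3B1_Hx, 4.79, 4.79 and 5.06 in siCtrl_Hx and -0.65 and -0.24 in siCtrl_Nx. The groups did not overlap, and the normoxic libraries stood near the floor, with 13 and 20 reads, against 244, 163 and 162 reads in siSF3B1_Hx and 636, 603 and 797 reads in siCtrl_Hx. The rise from hypoxia was 5.33 on the log2 scale, or 40.1-fold, the steepest of all tested genes in these libraries. With few normoxic reads the prior count draws that fold toward 1. SF3B1 siRNA lowered PPFIA4 3.2-fold in hypoxia (log2 fold change -1.68, SE 0.18, limma adjusted p = 1.84e-05). It nevertheless stayed 3.65 log2 units above siCtrl_Nx (SE 0.20), the widest remaining distance among the 10. Because PPFIA4 passed the filter only through its hypoxic libraries, that distance is a description.

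FGF11 belongs to the fibroblast growth factor homologous factors, which carry the FGF fold but stay inside the cell (Entrez 2256; chromosome 17, 7438273 to 7444937 on the plus strand; up to 5 exons). Levels were 3.11, 1.88 and 2.71 log2 CPM in siSF3B1_Hx, 5.16, 4.71 and 5.17 in siCtrl_Hx and 2.04 and 2.15 in siCtrl_Nx. All siSF3B1_Hx libraries were below siCtrl_Hx, and library 6 was also below both normoxic libraries, so FGF11 was the only 1 of the 10 in which siSF3B1_Hx overlapped siCtrl_Nx. The rise was 2.92 on the log2 scale (7.56-fold). FGF11 had the lowest fold change of the 10 with SF3B1 siRNA, a 5.46-fold drop in hypoxia (log2 fold change -2.45, SE 0.26, limma adjusted p = 2.12e-05). Against siCtrl_Nx the difference was 0.47 with a 95% confidence interval of -0.19 to 1.13 (limma adjusted p = 0.191). Without library 6 it was 0.81 and was called (limma adjusted p = 0.00442), so that library decided the call.

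The mitochondrial genes were AK4 and FAM162A. AK4 is an adenylate kinase of the mitochondrial matrix, which balances adenine and guanine nucleotides (Entrez 205; chromosome 1, 65147549 to 65232145 on the plus strand; up to 6 exons). It stood at 7.14, 7.17 and 7.11 log2 CPM in siSF3B1_Hx, 8.02, 8.08 and 8.03 in siCtrl_Hx and 5.88 and 6.10 in siCtrl_Nx. The groups were far apart and the hypoxic libraries were tightly placed within each group. The rise was 2.05 (4.14-fold), and with SF3B1 siRNA AK4 fell 1.87-fold (log2 fold change -0.90, SE 0.067, limma adjusted p = 1.74e-06), leaving it 1.14 above siCtrl_Nx (SE 0.074, limma adjusted p = 1.24e-06). GENCODE lists 6 AK4 pseudogenes on other chromosomes, so reads shared with them could be counted or lost, and the values for AK4 carry that uncertainty.

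FAM162A, also known as HGTD-P, is a mitochondrial protein known to promote cell death when induced by hypoxia (Entrez 26355; chromosome 3, 122384176 to 122412334 on the plus strand; up to 6 exons). It was measured at 6.41, 6.14 and 6.20 log2 CPM in siSF3B1_Hx, 6.82, 6.47 and 7.05 in siCtrl_Hx and 4.97 and 4.88 in siCtrl_Nx. The highest siSF3B1_Hx library came within a small distance of the lowest siCtrl_Hx library without overlap, and both hypoxic groups were well above normoxia. The log2 rise was 1.86 (3.62-fold). The drop with SF3B1 siRNA was 1.44-fold, the least of the 9 called (log2 fold change -0.53, SE 0.13, limma adjusted p = 0.00521). FAM162A stayed 1.33 above siCtrl_Nx (SE 0.15, limma adjusted p = 3.48e-05).

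DEPP1 and NDRG1 are stress-responsive genes. DEPP1 is a FOXO-regulated gene first described in decidual cells under progesterone, with a role in autophagy (Entrez 11067; chromosome 10, 44970981 to 44978810 on the minus strand; 2 exons). Its values were 6.62, 6.70 and 6.57 log2 CPM in siSF3B1_Hx, 7.32, 7.23 and 7.48 in siCtrl_Hx and 3.58 and 3.66 in siCtrl_Nx. Both hypoxic groups were far above normoxia and did not overlap each other. The rise of 3.72 (13.2-fold) ranked 3 among tested genes. SF3B1 siRNA lowered DEPP1 1.64-fold (log2 fold change -0.71, SE 0.077, limma adjusted p = 2.19e-05), and it stayed 3.01 above siCtrl_Nx (SE 0.086, limma adjusted p = 2.64e-08).

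NDRG1, named as a gene repressed by N-myc, responds to hypoxia, metals and other stresses and is known as a suppressor of metastasis in several tumours (Entrez 10397; chromosome 8, 133237171 to 133302022 on the minus strand; up to 16 exons). It reached 5.39, 5.28 and 5.67 log2 CPM in siSF3B1_Hx, 6.28, 6.14 and 6.56 in siCtrl_Hx and 3.14 and 3.81 in siCtrl_Nx. The groups did not overlap, but the normoxic libraries lay further from each other than those of any other member. A log2 rise of 2.86 (7.24-fold) stood beside a 1.85-fold drop with SF3B1 siRNA (log2 fold change -0.89, SE 0.17, limma adjusted p = 0.00119). The level remained 1.97 above siCtrl_Nx (SE 0.19, limma adjusted p = 1.51e-05).

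A zinc finger factor and an ankyrin repeat protein follow. ZNF395 is a zinc finger transcription factor known to be induced by hypoxia (Entrez 55893; chromosome 8, 28345585 to 28402701 on the minus strand; up to 10 exons). Levels of ZNF395 were 3.35, 2.93 and 3.23 log2 CPM in siSF3B1_Hx, 4.80, 4.89 and 5.06 in siCtrl_Hx and 2.54 and 2.77 in siCtrl_Nx. The siSF3B1_Hx libraries lay much nearer to normoxia than to siCtrl_Hx, with no overlap on either side. Its log2 rise was 2.26 (4.79-fold), and SF3B1 siRNA took it down 3.35-fold (log2 fold change -1.74, SE 0.13, limma adjusted p = 2.07e-06). The excess over siCtrl_Nx was 0.52 (SE 0.15, limma adjusted p = 0.0116), but it was not called on plain read totals (0.35, limma adjusted p = 0.0662) or without normoxic library 1 (0.40, limma adjusted p = 0.104).

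ANKRD37 encodes a small ankyrin repeat protein and is a known HIF-1 target (Entrez 353322; chromosome 4, 185396021 to 185400628 on the plus strand; up to 5 exons). It had 1.30, 1.02 and 1.52 log2 CPM in siSF3B1_Hx, 1.45, 1.51 and 1.63 in siCtrl_Hx and -1.38 and -1.22 in siCtrl_Nx. These values rest on 50, 41 and 53 reads in siSF3B1_Hx, 61, 60 and 72 reads in siCtrl_Hx and 7 and 9 reads in siCtrl_Nx, the fewest of the set in normoxia. The hypoxic groups overlapped and both stood clear of normoxia. The rise was 2.83 (7.12-fold). With SF3B1 siRNA the difference was -0.25 with a 95% confidence interval of -0.69 to 0.20 (limma adjusted p = 0.295), an interval that includes the estimate of FAM162A (-0.53) and ends just short of that of DEPP1 (-0.71). ANKRD37 stayed 2.58 above siCtrl_Nx (SE 0.22), a description alone, since it passed the filter only through its hypoxic libraries.

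Membrane and extracellular-type proteins complete the set. TMEM45A is a multi-pass membrane protein studied in the drug resistance of hypoxic cancer cells (Entrez 55076; chromosome 3, 100492619 to 100577444 on the plus strand; up to 8 exons). It was found at 2.69, 2.44 and 2.05 log2 CPM in siSF3B1_Hx, 4.09, 3.58 and 3.75 in siCtrl_Hx and 1.93 and 1.98 in siCtrl_Nx. All siSF3B1_Hx libraries were below siCtrl_Hx, and library 9 came close to normoxia. After a rise of 1.85 (3.6-fold), SF3B1 siRNA lowered TMEM45A 2.66-fold (log2 fold change -1.41, SE 0.18, limma adjusted p = 7.96e-05). The difference from siCtrl_Nx was 0.43 with a 95% confidence interval of -0.025 to 0.89 (limma adjusted p = 0.0902). It was called with the library-number sets as a replicate block (0.54, limma adjusted p = 0.0108), after quantile normalization (0.51, limma adjusted p = 0.0496) and without library 9 (0.61, limma adjusted p = 0.0233).

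TSPEAR has a laminin G-like domain and EAR repeats, and its human variants are linked to tooth and hair defects (Entrez 54084; chromosome 21, 44497892 to 44711580 on the minus strand; up to 13 exons). It read 1.41, 0.54 and 1.23 log2 CPM in siSF3B1_Hx, 2.57, 2.88 and 2.99 in siCtrl_Hx and -0.39 and -0.45 in siCtrl_Nx. The counts behind them were 54, 29 and 43 reads in siSF3B1_Hx, 135, 159 and 188 reads in siCtrl_Hx and 16 and 17 reads in siCtrl_Nx. The groups did not overlap, with library 6 the lowest of siSF3B1_Hx. The rise was 3.23 (9.4-fold). SF3B1 siRNA lowered TSPEAR 3.37-fold (log2 fold change -1.75, SE 0.24, limma adjusted p = 9.83e-05), and 1.48 remained over siCtrl_Nx (SE 0.26). What remained is a description, since TSPEAR passed the filter only through its hypoxic libraries.

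**Figure D2:**
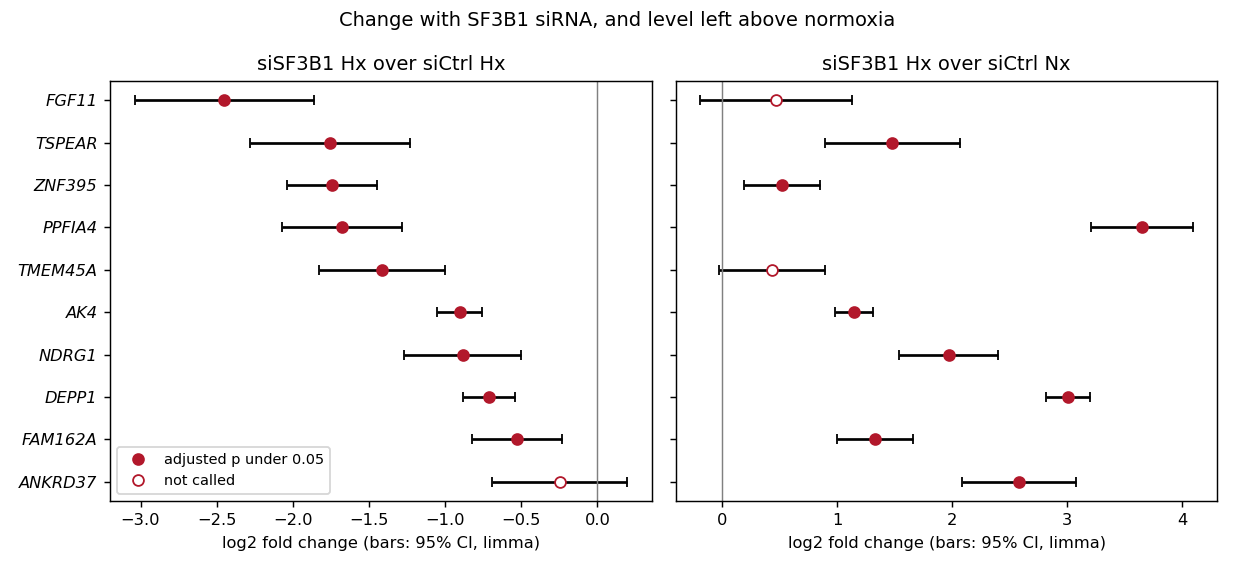
Log2 fold change of each gene (points) with its 95% confidence interval from limma (bars), for siSF3B1_Hx over siCtrl_Hx on the left and siSF3B1_Hx over siCtrl_Nx on the right; filled points have an adjusted p under 0.05. On the left 9 genes are called lower and the ANKRD37 interval crosses 0. On the right 8 genes are called higher and the intervals of FGF11 and TMEM45A cross 0. PPFIA4, TSPEAR and ANKRD37, among those 8, passed the filter only through hypoxic libraries.

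The depth of the drop with SF3B1 siRNA varied among the genes, from -2.45 in FGF11 to -0.25 in ANKRD37. Ordered by fold change, the 95% confidence intervals of each gene and the next overlapped throughout. Overlap of intervals is not a test of a difference, and the differences between genes were not tested, so the order is one of estimates alone. FGF11, TSPEAR, ZNF395, PPFIA4 and TMEM45A all had estimates below -1.4, and AK4, NDRG1, DEPP1, FAM162A and ANKRD37 all had estimates above -1. Paired by library-number set (1 to 3, 4 to 6 and 7 to 9), siSF3B1_Hx minus siCtrl_Hx was negative in 3 of 3 sets for all 10 genes. The differences ran from -2.84 to -0.11. The like share over all tested genes was not taken. A stricter placing, every siSF3B1_Hx library below every siCtrl_Hx library, was found in 32.1% of tested genes. Because siCtrl_Hx is also a group on which the genes were chosen, the count over sets supports nothing. ANKRD37 was not called, so its negative differences are no evidence of a drop. In comparison with siCtrl_Nx, 8 of 10 genes were called higher, against 34.1% of all tested genes called higher and 28.3% called lower. The 8 include PPFIA4, TSPEAR and ANKRD37, which passed the filter only through hypoxic libraries. On plain read totals that split over all genes became 3173 higher and 4828 lower, against 4473 higher and 3705 lower as deposited, with the median of all tested genes moved by -0.17.

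The share of the rise still present under SF3B1 siRNA was taken for each siSF3B1_Hx library as its distance above the siCtrl_Nx mean, divided by the distance of the siCtrl_Hx mean. Because the denominator is the contrast that chose the genes, the share is a description. On the log2 scale it had a median of 62.2% over the 10 genes. On the linear CPM scale the median was 34.2%, since a log scale gives more weight to the first doublings. The choice of scale moved the median by more than any other choice tried.

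ANKRD37 kept the highest share, 92%, 81.9% and 99.8% of its log2 rise in the 3 siSF3B1_Hx libraries, a mean of 91.2% ± 8.95 (SD, n = 3). DEPP1 followed with 80.5%, 82.7% and 79.3%, a mean of 80.8% ± 1.71. FAM162A had 80.3%, 65.4% and 68.7%, a mean of 71.5% ± 7.8. In these 3 genes most of the rise was present in every library on the log2 scale, and the linear means were 82.5% for ANKRD37, 57.7% for DEPP1 and 56.8% for FAM162A.

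NDRG1 had 67%, 63.2% and 76.8%, a mean of 69% ± 7, and PPFIA4 was close to it with 75%, 63.9% and 66.6%, a mean of 68.5% ± 5.76. On the linear scale these became 46.6% for NDRG1 and 29.9% for PPFIA4. The steep rise of PPFIA4 makes this gap between scales wide. Its means were 9.36 CPM in siSF3B1_Hx, 29.6 CPM in siCtrl_Hx and 0.742 CPM in siCtrl_Nx. AK4 had the narrowest spread, 55.8%, 57.3% and 54.4%, a mean of 55.8% ± 1.48 on the log2 scale and 38.5% on the linear scale.

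TSPEAR retained 56.6%, 29.7% and 51%, a mean of 45.8% ± 14.2, or 22.2% on the linear scale. The lowest shares were those of TMEM45A with 39.8%, 26% and 4.8% (mean 23.5% ± 17.6) and ZNF395 with 30.9%, 12.3% and 25.4% (mean 22.9% ± 9.56). FGF11 had 34.6%, -7.51% and 21.1%, a mean of 16% ± 21.5. In FGF11 the SD exceeded the mean and in TMEM45A it came near it, so the libraries do not fix how much remained. On the linear scale the means were 14.2% for TMEM45A, 11.5% for ZNF395 and 7.04% for FGF11.

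**Figure D3:**
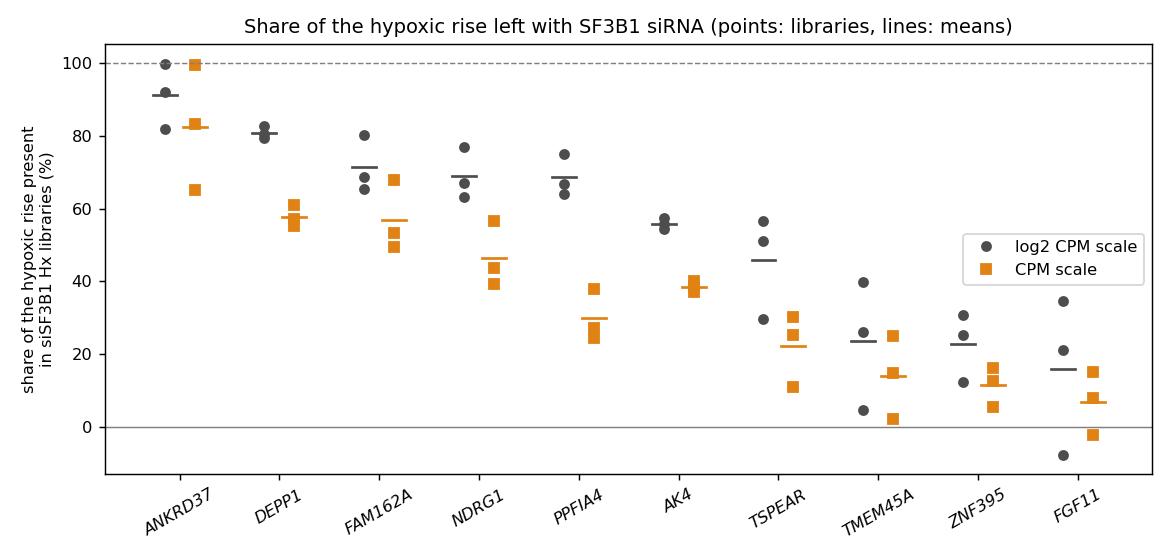
Share of the hypoxic rise present in each siSF3B1_Hx library (points, in percent; 0 is the siCtrl_Nx mean and 100 the siCtrl_Hx mean) on the log2 CPM scale (grey circles) and the CPM scale (orange squares), with the mean of 3 libraries as a line. The shares fall in a broad range, from a log2 mean of 91.2% in ANKRD37 to 16% in FGF11, and the mean CPM share lies below the mean log2 share in each of the 10 genes.

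Levels between genes were compared per kilobase of exonic length from GENCODE, as CPM per kb. In siSF3B1_Hx the order was DEPP1 at 33.2 ± 1.47 CPM per kb, FAM162A at 20.1 ± 2.06, AK4 at 18.6 ± 0.391, NDRG1 at 4.46 ± 0.633, ZNF395 at 1.56 ± 0.227, FGF11 at 1.13 ± 0.445, PPFIA4 at 0.964 ± 0.213, ANKRD37 at 0.951 ± 0.165, TMEM45A at 0.889 ± 0.195 and TSPEAR at 0.482 ± 0.14 (SD, n = 3). FAM162A and AK4 overlapped, as did each neighbour from ZNF395 to TMEM45A. The first 4 genes and TSPEAR therefore stood apart from a middle group of similar level.

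In siCtrl_Hx the order was DEPP1 at 54.6 ± 4.89 CPM per kb, AK4 at 34.8 ± 0.755, FAM162A at 29.3 ± 5.83, NDRG1 at 8.25 ± 1.25, FGF11 at 5.87 ± 0.999, ZNF395 at 5.21 ± 0.476, PPFIA4 at 3.05 ± 0.337, TMEM45A at 2.36 ± 0.441, TSPEAR at 1.59 ± 0.231 and ANKRD37 at 1.12 ± 0.0723 (SD, n = 3). AK4 overlapped FAM162A and FGF11 overlapped ZNF395. In siCtrl_Nx AK4 led at 8.43 ± 0.915 CPM per kb, FAM162A and DEPP1 followed at 8.0 ± 0.361 and 4.13 ± 0.174, and PPFIA4 was lowest at 0.0764 ± 0.0151 (SD, n = 2). PPFIA4 was thus number 7 of the 10 in siCtrl_Hx and last in normoxia, while in siSF3B1_Hx it overlapped FGF11 and ANKRD37 beside it. DEPP1 was first in both hypoxic groups and behind AK4 and FAM162A in normoxia.

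Paralogs of the 10 genes, listed by name, had log2 fold changes from -0.56 to 0.60 with hypoxia. Of 26 listed paralogs 15 were in the table and 14 were tested. In siCtrl_Hx against siCtrl_Nx 2 were called higher and none lower, against 4.35% of all tested genes called higher and 1.3% lower, with a median log2 fold change of 0.037. They were the liprin-beta gene PPFIBP1 (0.47, SE 0.073, limma adjusted p = 0.00408) and the cytosolic adenylate kinase AK1 (0.60, SE 0.10, limma adjusted p = 0.00667). Neither was called without normoxic library 1. With the library-number sets as a replicate block 3 paralogs were called higher and 1 lower, with ZNF704 (0.65, limma adjusted p = 0.0113) gained among the higher and NDRG4 (-0.43, limma adjusted p = 0.0303) the lower one.

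Within families the values stood as follows. For the liprins, PPFIA4 rose by 5.33, against -0.0066 for PPFIA1, 0.28 for PPFIA3 and -0.17 for PPFIBP2. For the adenylate kinases, AK4 rose by 2.05, against -0.082 for its nearest relative AK3, also of the mitochondrial matrix. NDRG1 rose by 2.86, against 0.08 for NDRG3 and -0.34 for NDRG4. ZNF395 rose by 2.26, against 0.50 for ZNF704 and 0.33 for SLC2A4RG, and TMEM45A by 1.85, against -0.56 for TMEM45B. No paralog of TSPEAR or FAM162A was in the table, and the 1 for FGF11, FGF14, was too low to be tested.

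With SF3B1 siRNA in hypoxia the 14 tested paralogs went both ways: 3 were called higher and 4 lower, with a median log2 fold change of -0.047. Of all tested genes 35.0% were called higher and 30.9% lower in this contrast, so calls in both directions were common. AK3 was higher (0.90, SE 0.085, limma adjusted p = 8.82e-06), the opposite sign to AK4. AK5 (0.78, limma adjusted p = 0.0014) and AK6 (0.32, limma adjusted p = 0.0291) were also higher, although AK6 lost its call on plain read totals (0.19) and without siCtrl_Hx library 8 or siSF3B1_Hx library 6. PPFIA3 (-1.58), PPFIBP1 (-1.22), PPFIA1 (-0.34) and NDRG3 (-0.27) were lower, with limma adjusted p from 3.22e-07 to 0.015. NDRG3 lost its call without siCtrl_Hx library 2 or siSF3B1_Hx library 9. With the replicate block 5 paralogs were called higher and 5 lower: PPFIBP2 (0.23, limma adjusted p = 0.0198) and TMEM45B (0.62, limma adjusted p = 0.0419) gained a higher call and ZNF704 (-0.55, limma adjusted p = 0.00162) a lower one. PPFIA3 thus changed by about as much as PPFIA4 with the siRNA while it was not called with hypoxia.

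**Figure D4:**
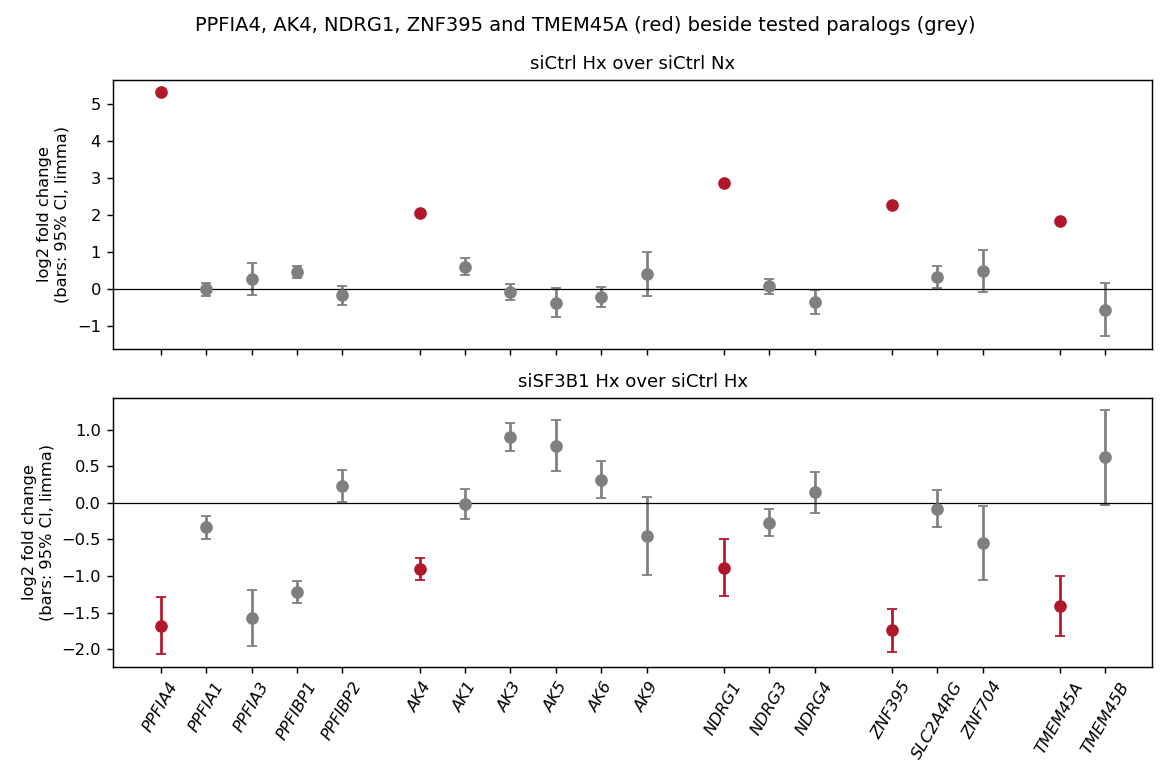
Log2 fold change of PPFIA4, AK4, NDRG1, ZNF395 and TMEM45A (red) beside their tested paralogs (grey), for siCtrl_Hx over siCtrl_Nx in the upper panel and siSF3B1_Hx over siCtrl_Hx in the lower; bars are 95% confidence intervals from limma, left out in the upper panel for the red genes, which were chosen on that contrast. In the upper panel the red genes lie between 1.85 and 5.33 and the grey genes between -0.56 and 0.60; in the lower panel the red genes lie between -1.74 and -0.89, PPFIA3 and PPFIBP1 fall in that range and the other grey genes lie above it, with AK3, AK5 and AK6 called higher.

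Several of the 10 genes share ground with other genes, and although the kit was stranded, the sources used here do not say if counting was. TSPEAR is crossed on the other strand by TSPEAR-AS1 (320 shared exonic bases) and TSPEAR-AS2 (16 shared exonic bases). TSPEAR-AS1 measured 2.14, 1.70 and 2.01 log2 CPM in siSF3B1_Hx, 3.96, 3.91 and 4.20 in siCtrl_Hx and 1.11 and 1.46 in siCtrl_Nx. TSPEAR-AS2 measured 0.92, 0.29 and -0.029 log2 CPM in siSF3B1_Hx, 2.85, 2.66 and 3.00 in siCtrl_Hx and -0.24 and -0.18 in siCtrl_Nx. All siCtrl_Hx libraries of both antisense genes were above those of the other groups, the same order as in TSPEAR.

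Both antisense genes were called in both contrasts. TSPEAR-AS1 had a log2 fold change of 2.74 with hypoxia (SE 0.18, limma adjusted p = 1.5e-05) and -2.07 with SF3B1 siRNA (SE 0.16, limma adjusted p = 2.43e-06). For TSPEAR-AS2 it was 3.04 with hypoxia (SE 0.27, limma adjusted p = 9.95e-05) and -2.44 with SF3B1 siRNA (SE 0.24, limma adjusted p = 1.21e-05). Reads of the 3 genes at this locus could be shared where exons overlap, so their values are not separate measurements there.

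DEPP1 shares 695 exonic bases with RASSF4, a RAS-association domain gene on the other strand. RASSF4 had a log2 fold change of -1.31 with SF3B1 siRNA (SE 0.20, limma adjusted p = 0.000202), and 0.76 with hypoxia (limma adjusted p = 0.0812, or 0.0187 with the replicate block). ANKRD37 shares 909 exonic bases with UFSP2, a protease of the UFM1 modifier. For UFSP2 it was -1.70 with SF3B1 siRNA (SE 0.11, limma adjusted p = 1.05e-06) and 0.13 with hypoxia (limma adjusted p = 0.617). At ANKRD37 the overlapping partner was therefore well below siCtrl_Hx while ANKRD37 itself was not called, and reads of both may be mixed. FAM162A shares 3 exonic bases with WDR5B.

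**Figure D5:**
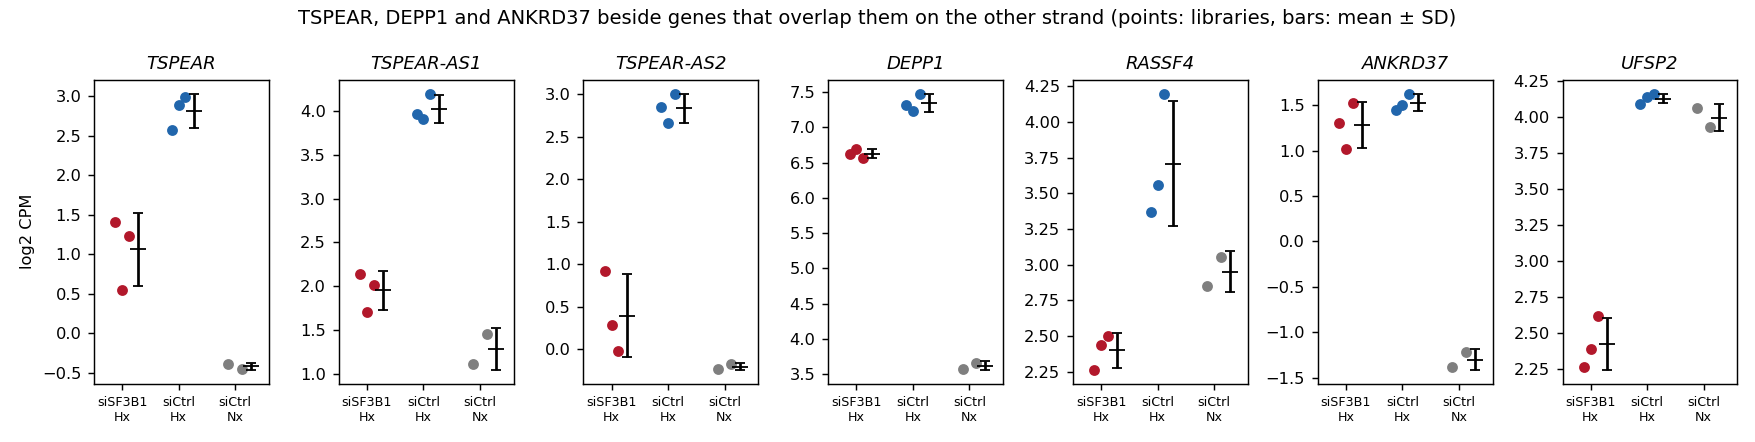
Log2 CPM in every library (points) with group mean and SD (bars) for TSPEAR, DEPP1 and ANKRD37 beside genes that overlap them on the other strand; each panel has its own axis. TSPEAR, TSPEAR-AS1 and TSPEAR-AS2 share the order siCtrl_Hx above siSF3B1_Hx, while UFSP2 is low in siSF3B1_Hx alone and ANKRD37 is low in siCtrl_Nx alone.

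Beyond overlaps, the nearest measured genes on either side were looked up. With the overlapping ones they came to 25 genes in the table, of which 22 were tested. With SF3B1 siRNA 8 of the 22 were called higher and 7 lower, where 35.0% of all tested genes were called higher and 30.9% lower. With hypoxia 4 of the 22 were called higher and none lower, against 4.35% of all tested genes called higher and 1.3% lower. The 4 were TSPEAR-AS1, TSPEAR-AS2, TMEM102, which lies 594 bases from FGF11 (0.67, limma adjusted p = 0.043), and CCDC58, which lies 945 bases from FAM162A (0.57, limma adjusted p = 0.00412). CCDC58 lost its call without normoxic library 1 (limma adjusted p = 0.0577). TMEM102 lost its call without either normoxic library (limma adjusted p = 0.187 without library 1 and 0.257 without library 4), without any siCtrl_Hx library in turn (0.0509 to 0.137) and without siSF3B1_Hx library 9 (0.0629). It was also not called on plain read totals (limma adjusted p = 0.0572), after quantile normalization (0.0554), with voom (0.0658) or without the intensity trend (0.0622). With the replicate block 8 of the 22 were called higher with hypoxia, the added ones being RASSF4, CHRNB1 (0.53, limma adjusted p = 0.00416), LRP2BP (1.01, limma adjusted p = 0.0269) and LRRC3 (0.73, limma adjusted p = 0.0273).

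As a wider frame, a list of 43 other genes known or reported to be induced by hypoxia was read, with no member among them. All 43 were in the table, 41 were tested and all 41 were called higher in siCtrl_Hx than in siCtrl_Nx. The list was drawn up with these results known, so that count is no independent evidence of direction. In siSF3B1_Hx against siCtrl_Hx 26 of 41 were lower, 3 higher and 12 not called, with a median log2 fold change of -0.47, against -1.16 for the 10 genes. Their share of the log2 rise remaining had a median of 76.1%, from -42.0% to 147%, against 62.2% for the 10. The lists differ in how they were chosen, and their difference was not tested.

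Among the lower ones, the mitophagy receptor BNIP3 changed by -1.76 (SE 0.071, limma adjusted p = 9.71e-08) and the histone demethylase KDM4B by -1.46 (SE 0.15, limma adjusted p = 1.87e-05). WSB1, a ubiquitin ligase substrate receptor, changed by -1.31 and ended below siCtrl_Nx (-0.39, limma adjusted p = 0.0127, or -0.30 and 0.11 without normoxic library 4). PDK1, which restrains entry of pyruvate into mitochondria, changed by -1.12 (limma adjusted p = 2.48e-06). CITED2, a transcriptional coregulator that competes with HIF for the coactivator p300, went the other way at 0.66 (SE 0.089, limma adjusted p = 0.000101).

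LOXL2 (0.21) and RAB20 (0.44) were also called higher, but both lost the call on plain read totals (0.074 for LOXL2 and 0.31 for RAB20). LOXL2 also lost it after quantile normalization and without siCtrl_Hx library 5, and RAB20 without siCtrl_Hx library 8. Of the genes not called, CA12 (-0.69, limma adjusted p = 0.0833), VLDLR (-0.50, limma adjusted p = 0.0867), DDIT4 (0.044, limma adjusted p = 0.896) and ADM (0.15, limma adjusted p = 0.346) had the largest rises. With the replicate block CA12 (limma adjusted p = 0.012), VLDLR (limma adjusted p = 0.0321) and ADM (limma adjusted p = 0.0342) were called, CA12 and VLDLR lower and ADM higher, for 28 lower and 5 higher of the 41. CA12 and VLDLR were also called without siCtrl_Hx library 5 (limma adjusted p = 0.0149 and 0.0398), and CA12 without siSF3B1_Hx library 3 (limma adjusted p = 0.0207). On plain read totals VLDLR was called lower as well (-0.63, limma adjusted p = 0.0377).

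Genes of like rise were read beside the set. The 49 tested genes outside the set whose rise was at least that of TMEM45A, the least-risen member, included 37 called lower with SF3B1 siRNA (75.5%), 1 called higher and 11 not called, with a median log2 fold change of -0.86. Of these 49 genes 45 were called higher in siSF3B1_Hx than in siCtrl_Nx. Their share of the log2 rise remaining had a median of 66.6%, from -1.01% to 167%. These genes, like the 10, were picked out by their rise, so both counts share libraries with that choice. Over all tested genes 30.9% were called lower in siSF3B1_Hx than in siCtrl_Hx and 34.1% higher than in siCtrl_Nx. The 9 lower calls of the 10 thus stood beside a majority of lower calls among genes chosen on the same contrast.

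The subunits of HIF itself did not share a direction. HIF1A averaged 71.5 ± 10.9 CPM in siSF3B1_Hx, against 38.8 ± 7.94 CPM in siCtrl_Hx and 119.6 ± 1.4 CPM in siCtrl_Nx (SD, n = 3, 3 and 2). HIF1A mRNA was therefore higher in siSF3B1_Hx than in siCtrl_Hx (0.89, SE 0.15, limma adjusted p = 0.000429), where 9 of the 10 genes were lower. EPAS1 was 0.43 (SE 0.059, limma adjusted p = 0.000105) and ARNT -0.92 (SE 0.072, limma adjusted p = 2.69e-06) in the same contrast. Protein was not analysed here.

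Across the 8 libraries the 10 genes followed a common profile, as their choice makes likely. Pearson's r of each gene with the mean standardised profile of the 10 ran from 0.893 in FGF11 to 0.992 in AK4, and between pairs from 0.635 for FGF11 with ANKRD37 to 0.987 for PPFIA4 with NDRG1. The points are 8 libraries of 3 groups that share library scaling and group differences. The tested genes outside the set most like that mean profile were FAM210A (r = 0.998), DIPK2A (0.996), PDK1 (0.995), INSIG2 (0.994) and STEAP3 (0.993), over 8 libraries. Their log2 rises were 0.87 for FAM210A, 0.88 for DIPK2A, 2.83 for PDK1, 2.39 for INSIG2 and 1.15 for STEAP3. With SF3B1 siRNA all 5 were called lower, from -1.12 in PDK1 to -0.40 in FAM210A; their likeness to the profile chose them, so these calls support nothing.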

How the data were processed

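RNA of 8 Panc1 libraries was analysed, in groups siSF3B1_Hx (3), siCtrl_Hx (3) and siCtrl_Nx (2). The deposited table gives log2 CPM for 15176 genes, 124 of them without a symbol, scaled to effective library sizes that were 0.927 to 1.06 times the read totals. The submitters' processing notes name, with no roles, edgeR 3.24.3, featureCounts, Subread 1.5.0, SAMtools 1.9, STAR 2.7.0a, Trimmomatic 0.35 and the build GRCh38.p13. A stranded kit with ribosomal RNA depletion was used, per the labels' protocols. Whether counting used strand, and the filter on genes, are not given in the sources used here.

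In the deposited log2 scale, steps of 1 read could be found: read numbers recovered this way were whole in 100.0% of values (tolerance 0.01 read). Totals over listed genes were 20496492 to 25257173 reads, and 3 reads correspond to at most 0.158 CPM. Genes with a mean log2 CPM above 0 (13112) were fitted with limma 3.58.1 in R 4.3.3: 1 mean per group over all 8 libraries, intensity trend, two-sided tests, Benjamini-Hochberg adjustment over tested genes, called at an adjusted p under 0.05. The script was tested on simulated data. CPM values are 2 to the power of the deposited values. GENCODE release 29 (GRCh38), matched by Entrez gene ID for 14629 genes, gave positions, overlaps and exonic lengths; promoter windows came from RefSeq. The 10 genes, the lists and the comparisons were chosen with earlier results of these data known. Named beside the 10 are SF3B1, HIF1A, EPAS1 and ARNT, listed paralogs in the table (1 of those listed is not reported here and is in no count of paralogs), up to 4 genes each called lower, called higher and not called from the hypoxia list, the 5 genes most alike in profile, and overlapping or neighbouring genes. Alternatives changed the filter, prior variance trend, library scaling, prior count, test (voom on recovered reads), groups fitted and single libraries.

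By number the libraries form the sets 1–3, 4–6 and 7–9, whose meaning the labels do not give. Deviations from group means correlated within sets (r from 0.344 to 0.43 over tested genes). Between sets r ran from -0.423 to 0.059, partly by construction, because deviations cancel within a group. The sets were also fitted as a replicate block. Blocked values are given where the call of a result given in the text changed.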

Additional observations from a re-analysis of the deposited data

How the results depend on the processing

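The 9 lower calls with SF3B1 siRNA and the uncalled ANKRD37 were the same under every alternative run, except that the stricter filter (mean log2 CPM above 1) left ANKRD37 untested. Against siCtrl_Nx 7 to 9 of the genes were called higher when a library was left out, with the changes in FGF11, ZNF395 and TMEM45A given above. No direction reversed in the 10 genes. With the replicate block siCtrl_Hx against siCtrl_Nx gave 1645 called genes, against 741 without it, and the block changed no call among the 10 genes other than TMEM45A. Leaving out libraries gave 278 to 881 called genes: 278 without normoxic library 1, 306 without normoxic library 4, 418 without hypoxic library 2 and 411 without hypoxic library 8. The median share of the rise remaining, 62.18% as reported, was 34.2% on the CPM scale, 56.1% on plain read totals, 59.43% after quantile normalization and 63.27% with median-centred libraries, and 59.1% to 63.89% without single libraries. The rise of ANKRD37, with 7 and 9 normoxic reads, was 3.05 with a prior count of 0.5, 3.06 with voom and 2.71 after quantile normalization, against 2.83. The precision of PPFIA4, TSPEAR and ANKRD37 in normoxia is limited by depth, at 20 reads or fewer per library. Where a setting changed a value, the cause was not tested.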
